A study of Solanum lycopersicum with 8 samples.

Results

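The alternative oxidases (AOX) of tomato were examined in seedlings whose *Sl*TOR kinase was inhibited. Of the 4 genes of this family, *AOX1b* (Solyc08g075550.4), *AOX1c* (Solyc08g005550.4) and *AOX2* (Solyc01g105220.3) were taken by their identifiers from the 34688 genes of the expression table. The fourth, *AOX1a* (Solyc08g075540), had no values among those used here, so that it could not be analysed. RNA-seq was performed on whole wild-type Micro-Tom seedlings, with 4 libraries from Torin2-treated and 4 from mock-treated seedlings, each given as a separate biological replicate. The Torin2 group received 5 μM Torin2, an ATP-competitive inhibitor of the TOR kinase, for 2 h, and the mock group received 0.1% DMSO. All seedlings were 10 days old and grew at 25 °C with 16 h of light and 8 h of darkness. The number of seedlings behind each library is not given in the sources used here, and in whole seedlings fewer cells of a type and less RNA per cell cannot be told apart.

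Alternative oxidases sit in the inner mitochondrial membrane, take electrons from ubiquinol and pass them to oxygen. This route bypasses the proton-pumping cytochrome pathway, so that respiration can go on with less ATP made and less reactive oxygen formed. Plants have AOX1-type genes, many of which are known to respond to cold and to mitochondrial stress, and in many dicots an AOX2-type gene that is better known for steady or developmental expression. In *Arabidopsis*, *AOX1A* is the standard marker of signaling from stressed mitochondria to the nucleus.

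None of the 3 measured genes was called as changed by Torin2. *AOX2* had the largest difference, with a mean 1.62 times as high in Torin2-treated as in mock-treated seedlings, but its groups overlapped. *AOX1b* was 1.17 times as high and *AOX1c* 0.940 times as high in Torin2-treated seedlings, both well within the spread between libraries. A gene was called where its adjusted p was under 0.05 (limma with Benjamini-Hochberg adjustment over 22330 genes whose mean reached 0.1 FPKM) and its absolute log2 fold change was over 1. Of these genes, 8.32% were called and 12.6% had an adjusted p under 0.05, and 0 of the 3 members met either criterion. So few members cannot be told apart from these shares. The Torin2 and mock values did not overlap in 19.2% of the genes, and overlapped in all 3 members. FPKM are fragment numbers scaled to gene length and library depth, and fold changes are on the log2(FPKM + 0.1) scale, which understates the change of weakly expressed genes.

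Libraries were split into 2 kinds by their side on the first axis of a principal component analysis, after each condition's mean had been subtracted. This axis held 53.6% of the variance. Such a split always gives 2 sides with libraries of each condition on both, so that it does not show 2 separate groups. Torin2 replicates 2 and 4 and mock replicates 1 and 2 made up the first kind, and Torin2 replicates 1 and 3 and mock replicates 3 and 4 the second. No source used here names a batch, and since the same libraries define the kinds, some difference between kinds was built in. Each kind holds 2 libraries of each condition. The depth was 36989257 to 39868131 fragments per library.

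*AOX2*, which encodes the AOX2-type enzyme, had the highest mean of the measured members in Torin2-treated seedlings but was below *AOX1b* in Torin2 replicate 3. It was measured at 3.01, 5.28, 3.16 and 5.13 FPKM in Torin2 replicates 1 to 4, against 3.33, 2.69, 2.25 and 1.95 FPKM in mock replicates 1 to 4. These values rest on 141 to 243 fragments per Torin2 library and 93 to 154 per mock library. Torin2 replicates 2 and 4 were above all mock libraries, whereas Torin2 replicates 1 and 3 lay below mock replicate 1. The means were 4.15 ± 1.22 FPKM in Torin2-treated and 2.56 ± 0.601 FPKM in mock-treated seedlings (SD, n = 4 each).

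The log2 fold change of *AOX2* was 0.66 (standard error 0.29, limma adjusted p = 0.152, unadjusted p = 0.0412). Its 95% interval ran from 1.02-fold to 2.44-fold, so that a 2-fold change lay inside it. Unadjusted p-values under 0.05 were common, at 29.1% of all genes. Permuting the *AOX2* FPKM values over all 70 assignments (exact permutation test, two-sided) gave p = 0.0857, where the smallest p that 4 libraries against 4 allow is 0.0286. Over all genes, the log2 fold change had a median of 0.16 on the deposited scale and 0.01 after median-of-ratios scaling. Relative to the median of 0.16, *AOX2* stood at 0.49, and 80.3% of the genes tested had a lower log2 fold change.

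Within each kind of library, both Torin2 libraries were above both mock libraries for *AOX2*. In the first kind, the Torin2 mean was 5.20 FPKM and the mock mean was 3.01 FPKM, a log2 fold change of 0.78. In the second kind, the Torin2 mean was 3.09 FPKM and the mock mean was 2.10 FPKM, a log2 fold change of 0.54. Such a separation in both kinds was seen in 27.9% of all genes tested, and 2 libraries against 2 cannot give an exact p under 0.333. *AOX2* was also higher in the first than in the second kind, by 0.73 on the log2 scale in Torin2-treated and by 0.50 in mock-treated seedlings. When the kind was added to the fit, the log2 fold change stayed at 0.66 and the adjusted p was 0.00620 (limma), a fit in which 38.2% of all genes had an adjusted p under 0.05. Adding a kind defined on these libraries takes variance out of the fit by design, and the fold change cut-off was still not reached. With each library's dependence on gene length taken out, *AOX2* had a log2 fold change of 0.70 (limma adjusted p = 0.0185), a fit in which 25.7% of all genes had an adjusted p under 0.05.

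**Figure D1:**
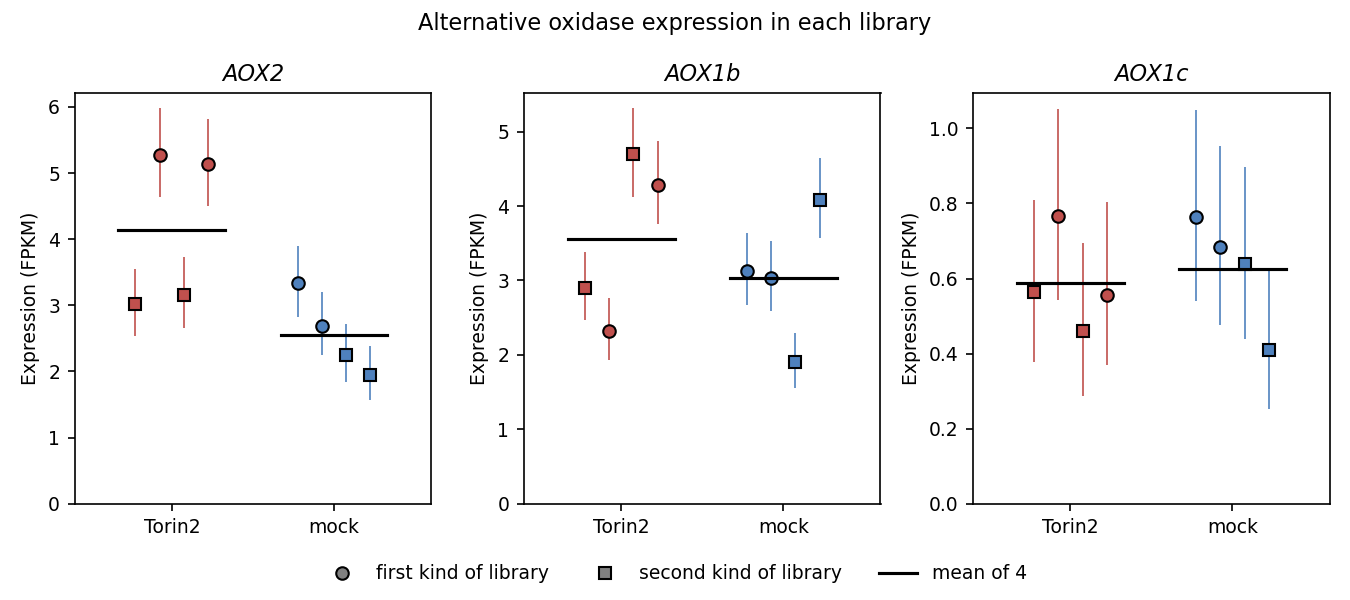
Expression of *AOX2*, *AOX1b* and *AOX1c* in FPKM (vertical axes, from 0) in the 4 Torin2 and the 4 mock libraries, shown in the order of replicates 1 to 4. Circles are libraries of the first kind and squares of the second, vertical lines are exact 95% Poisson intervals that cover counting error only, and horizontal lines are means; for *AOX2* the Torin2 circles at 5.28 and 5.13 FPKM stand above all mock libraries, while the other members overlap throughout.

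*AOX1b* is an AOX1-type gene whose identifier directly follows that of *AOX1a*. How fragments that fit both genes were assigned is not given in the sources used here, so that its values are uncertain to that extent. It was measured at 2.90, 2.32, 4.70 and 4.29 FPKM in Torin2 replicates 1 to 4, against 3.13, 3.03, 1.90 and 4.08 FPKM in mock replicates 1 to 4. The groups overlapped almost entirely, and the lowest value of all was in mock replicate 3 and the highest in Torin2 replicate 3. The means were 3.55 ± 1.12 FPKM in Torin2-treated and 3.03 ± 0.893 FPKM in mock-treated seedlings (SD, n = 4 each).

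The log2 fold change of *AOX1b* was 0.21 (standard error 0.32, limma adjusted p = 0.696), and the exact permutation test gave p = 0.514. The 95% interval ran from 0.728-fold to 1.85-fold, so that a 2-fold change in either direction lay outside it. Within the first kind of library the log2 fold change was 0.04, and within the second it was 0.39. Unlike for *AOX2*, the kinds had no common order in *AOX1b*, since the first minus the second kind was -0.22 in Torin2-treated and 0.14 in mock-treated seedlings on the log2 scale. Without mock replicate 3, the log2 fold change was 0.01.

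*AOX1c*, the third measured member and also of the AOX1 type, was the weakest. It was measured at 0.564, 0.767, 0.459 and 0.556 FPKM in Torin2 replicates 1 to 4, against 0.764, 0.685, 0.639 and 0.409 FPKM in mock replicates 1 to 4. The groups overlapped throughout, with means of 0.587 ± 0.130 FPKM in Torin2-treated and 0.624 ± 0.152 FPKM in mock-treated seedlings (SD, n = 4 each). Only 22 to 38 fragments per Torin2 library and 21 to 38 per mock library lay behind these values, all above the floor of 3 fragments, which is 0.0596 FPKM for this gene at the mean depth.

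The log2 fold change of *AOX1c* was -0.07 (standard error 0.34, limma adjusted p = 0.922), and the exact permutation test gave p = 0.714. The 95% interval ran from 0.575-fold to 1.58-fold. Without Torin2 replicate 3 or without mock replicate 1 the sign turned, to 0.025 and 0.026, so that no direction could be given. In both conditions the first kind of library had the higher mean, by 0.31 on the log2 scale in Torin2-treated and 0.43 in mock-treated seedlings. The kinds overlapped in Torin2-treated seedlings, with 0.556 FPKM in replicate 4 of the first kind and 0.564 FPKM in replicate 1 of the second.

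**Figure D2:**
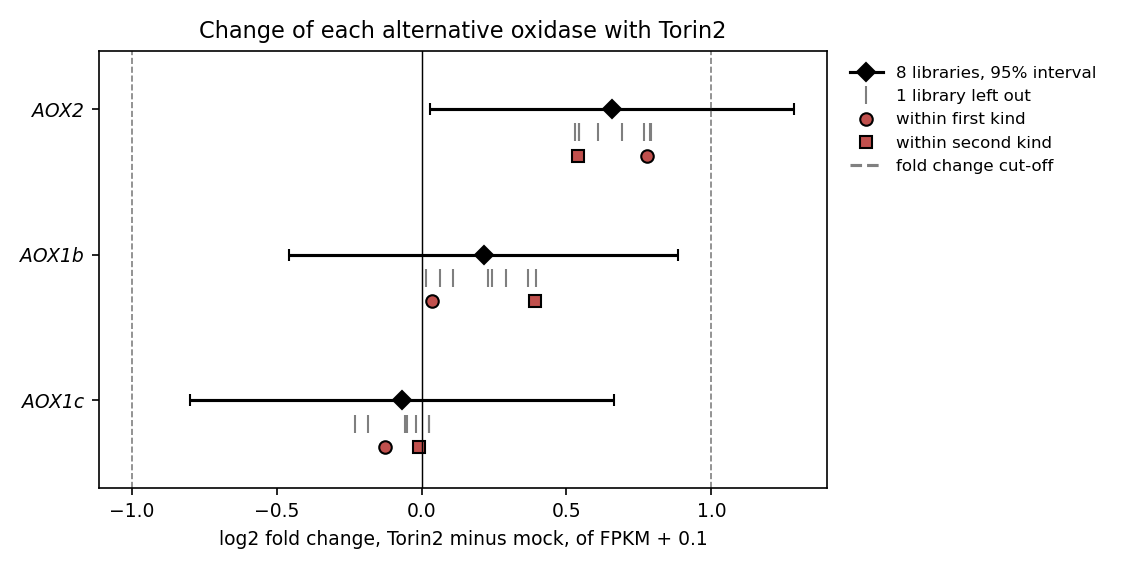
Log2 fold change (horizontal axis, Torin2 minus mock, of FPKM + 0.1) of the 3 genes over the 8 libraries with the 95% limma interval (diamonds), with 1 library left out (grey ticks) and within each kind of library (circle and square). No estimate reaches the cut-off of 1 drawn as a dashed line; the interval of *AOX2* crosses it, from 0.03 to 1.29, and the intervals of *AOX1b* and *AOX1c* lie between the dashed lines and include 0.

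The spread between libraries was set beside counting error for each member. The variance of the fragment number divided by its mean, which is near 1 where counting error alone acts, was 17.0 in Torin2-treated and 5.77 in mock-treated seedlings for *AOX2*. It was 17.3 in Torin2-treated and 14.4 in mock-treated seedlings for *AOX1b*, and 1.49 in Torin2-treated and 1.75 in mock-treated seedlings for *AOX1c*. The coefficient of variation of FPKM ranged from 22.1% for *AOX1c* in Torin2-treated seedlings to 31.7% for *AOX1b* in Torin2-treated seedlings. The ratio of variance to mean grows with the fragment number at a given relative spread, so that it does not rank the members by their spread. None of the 4 libraries of a condition stood far from the others by Dixon's criterion, in any of the 3 genes or in their sum. This criterion looks for 1 library apart from the rest and cannot show a split of 2 against 2. *AOX2* had such a split in Torin2-treated seedlings, with 243 and 240 fragments in the first kind and 144 and 141 in the second.

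The measured family was weakly expressed at the transcript level. Over all 8 libraries, *AOX2* averaged 3.35 FPKM and *AOX1b* 3.29 FPKM, levels above those of 34.3% and 33.9% of the genes tested. *AOX1c* averaged 0.606 FPKM, above 12.1% of the genes tested. The order of the levels was *AOX2*, *AOX1b* and *AOX1c* in Torin2-treated seedlings and *AOX1b*, *AOX2* and *AOX1c* in mock-treated seedlings. In both conditions *AOX2* and *AOX1b* were closer to each other than the spread between libraries, whereas *AOX1c* was below both in every library.

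The summed level of the 3 measured genes was 6.48, 8.36, 8.32 and 9.98 FPKM in Torin2 replicates 1 to 4, against 7.23, 6.41, 4.79 and 6.44 FPKM in mock replicates 1 to 4. Torin2 replicates 2, 3 and 4 were above all mock libraries, and Torin2 replicate 1 was below mock replicate 1. The means were 8.28 ± 1.43 FPKM in Torin2-treated and 6.22 ± 1.02 FPKM in mock-treated seedlings (SD, n = 4 each), given as a description with no test. *AOX2* made up 49.8% ± 10.5 of this sum in Torin2-treated and 41.3% ± 7.69 in mock-treated seedlings (SD, n = 4 each). *AOX1b* made up 43.0% ± 11.8 in Torin2-treated and 48.4% ± 10.4 in mock-treated seedlings. *AOX1c* made up 7.24% ± 1.97 in Torin2-treated and 10.2% ± 2.89 in mock-treated seedlings.

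**Figure D3:**
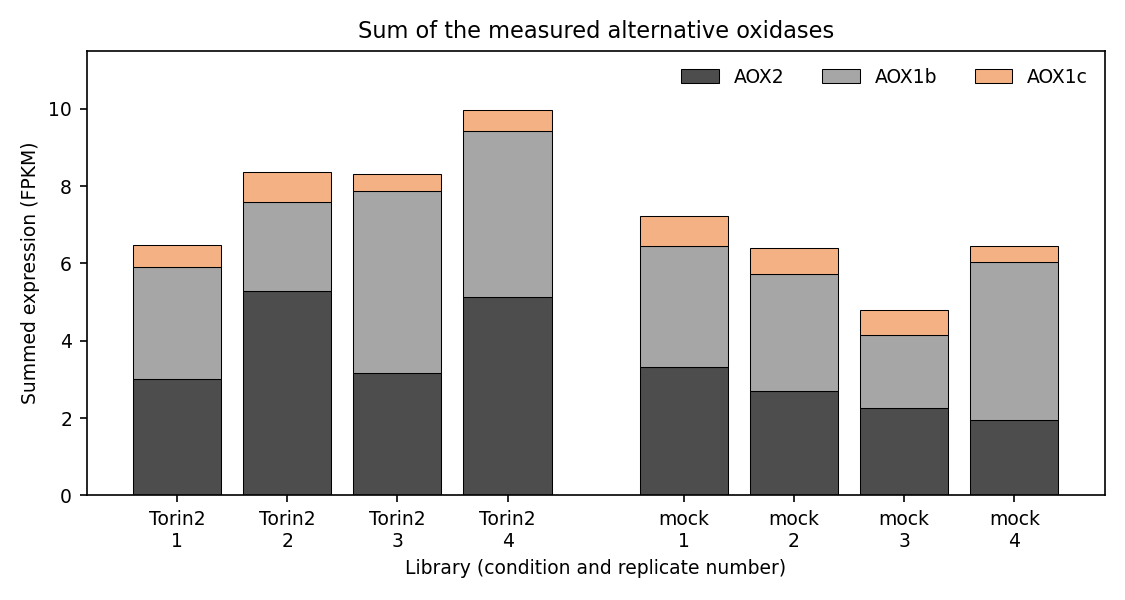
Summed expression of *AOX2*, *AOX1b* and *AOX1c* in FPKM (vertical axis, from 0) in each of the 4 Torin2 and 4 mock libraries, with the part of each gene as a shaded block; *AOX1a* is not included. The sum runs from 6.48 to 9.98 FPKM in Torin2-treated and from 4.79 to 7.23 FPKM in mock-treated seedlings, and *AOX2* and *AOX1b* carry most of it in every library.

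Ratios between members within a library were compared to ask whether 2 members changed unequally. The ratio of *AOX2* to *AOX1c* was 5.34, 6.88, 6.89 and 9.22 in Torin2 replicates 1 to 4, against 4.36, 3.93, 3.52 and 4.76 in mock replicates 1 to 4. The groups did not overlap. How often ratios separate the groups over all pairs of genes was not computed, while single genes did so in 19.2% of those tested. *AOX1c* rests on only 21 to 38 fragments per library. For the test, 0.1 FPKM was added to both genes before the ratio was taken, and this log2 ratio was on average 0.73 higher in Torin2-treated seedlings. With 1 FPKM added, the difference was 0.55. The exact two-sided permutation test of the log2 ratio gave p = 0.0286, the smallest possible. After Benjamini-Hochberg adjustment over the 3 pairs it was 0.0857, so that the difference did not pass. A pair that alone reaches the smallest possible p cannot get a lower adjusted p, so that this outcome was fixed in advance and decides nothing.

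The ratio of *AOX2* to *AOX1b* ranged from 0.674 to 2.28 in Torin2-treated and from 0.478 to 1.18 in mock-treated seedlings (exact permutation p = 0.400 for the log2 ratio, adjusted p = 0.571). The ratio of *AOX1c* to *AOX1b* ranged from 0.0977 to 0.331 in Torin2-treated and from 0.100 to 0.336 in mock-treated seedlings (exact permutation p = 0.571, adjusted p = 0.571). For both pairs the groups overlapped, so that no unequal change was found. In Torin2 replicate 3 and mock replicate 4 *AOX1b* was well above *AOX2*, and in Torin2 replicate 2 it was well below.

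**Figure D4:**
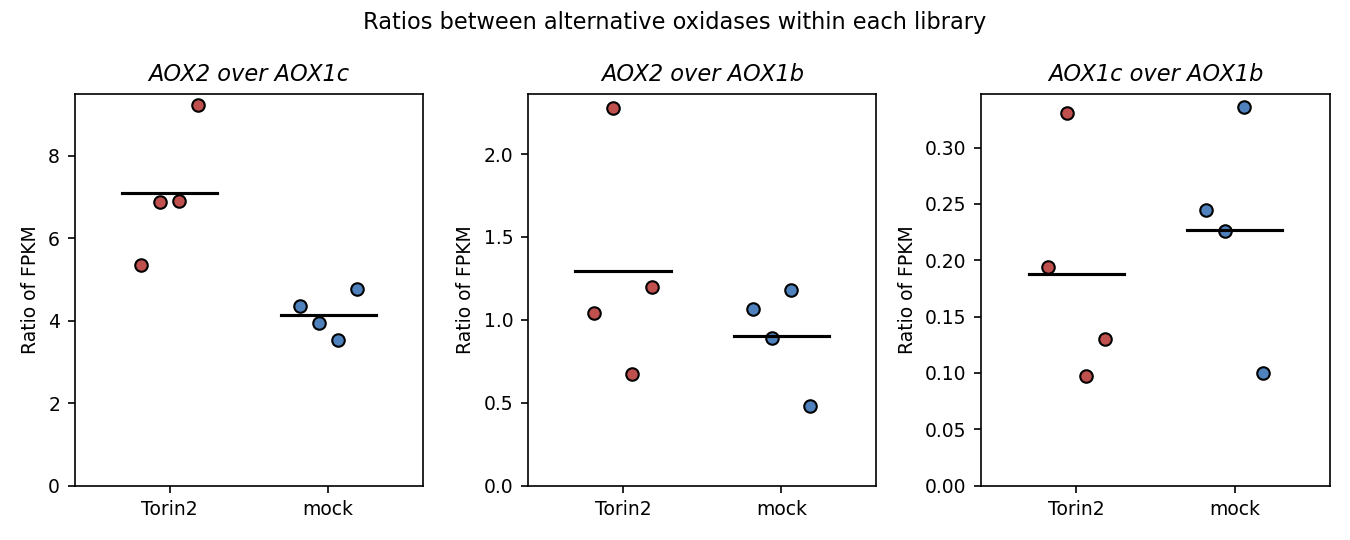
Ratio of the FPKM values of 2 members within a library (vertical axes, from 0) in the 4 Torin2 and the 4 mock libraries, shown in the order of replicates 1 to 4; horizontal lines are means. The ratio of *AOX2* to *AOX1c* lies between 5.34 and 9.22 in Torin2-treated and between 3.52 and 4.76 in mock-treated seedlings, and the other ratios overlap.

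Among 18545 genes averaging 1 FPKM or more, the pattern of *AOX2* over the 8 libraries was shared most closely by Solyc02g078210.3, with a Pearson's r of 0.999 on the log2 scale. Solyc02g078210.3 was measured at 36.9, 69.3, 38.3 and 67.1 FPKM in Torin2 replicates 1 to 4, against 40.3, 31.0, 26.2 and 20.9 FPKM in mock replicates 1 to 4. Like *AOX2*, it was highest in Torin2 replicates 2 and 4, lowest in mock replicate 4, and not called (log2 fold change 0.82, limma adjusted p = 0.0615). The next were Solyc08g065990.3 and Solyc04g070980.4, each with an r of 0.996. For *AOX1b*, the closest were Solyc03g082840.3, Solyc07g047990.1 and Solyc10g017630.3, with an r of 0.881, 0.874 and 0.869. Between *AOX2* and *AOX1b* r was 0.06. These values describe 8 points that share the treatment and the kind of library, and the genes were picked as the highest of many.

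The genes with neighbouring identifiers gave the local background, and only those with the largest absolute log2 fold changes are described gene by gene. In all other neighbouring genes the groups overlapped, with limma adjusted p of at least 0.195. Their log2 fold changes ran from -0.54 (Solyc08g005520.3) to 0.61 (Solyc08g075570.4). Solyc01g105230.4, which follows *AOX2* in the table, was measured at 5.53, 7.32, 4.86 and 6.50 FPKM in Torin2 replicates 1 to 4, against 3.48, 3.43, 2.66 and 2.36 FPKM in mock replicates 1 to 4. Its groups did not overlap, as was the case in 11.4% of all genes tested in this direction. The log2 fold change of Solyc01g105230.4 was just under the cut-off at 0.997 (limma adjusted p = 0.0218) and was 0.50 with the dependence on gene length taken out of every library. With 1 library left out, Solyc01g105230.4 was called in 4 of 8 fits, those without Torin2 replicate 1 or 3 or mock replicate 1 or 2, with log2 fold changes from 0.89 to 1.10 over the 8 fits. It was also called with a pseudocount of 0.01 FPKM, at 1.02 (limma adjusted p = 0.0207), and with limma-voom on recovered fragments, at 1.02 (adjusted p = 0.0110).

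At the *AOX1a* and *AOX1b* locus, the gene identifier before theirs is Solyc08g075530.3. This gene averaged 4.18 ± 1.24 FPKM in Torin2-treated and 2.22 ± 0.653 FPKM in mock-treated seedlings (SD, n = 4 each). Its log2 fold change was 0.88 (limma adjusted p = 0.0742). Of the 17 alternatives, Solyc08g075530.3 passed both cut-offs in the fit without Torin2 replicate 1, at 1.05 (limma adjusted p = 0.0403), and it was at 0.36 with the dependence on gene length taken out (limma adjusted p = 0.0975). Next to *AOX1c*, Solyc08g005540.2, annotated as the polyamine transporter *PUT1*, had non-overlapping groups, with 0.206, 1.18, 0.730 and 1.07 FPKM in Torin2 replicates 1 to 4 against 1.95, 1.31, 1.72 and 1.24 FPKM in mock replicates 1 to 4. The annotation of Solyc08g005540.2 comes from the study's own list of changed genes, which was drawn from these same libraries. Lower and non-overlapping Torin2 values were found in 7.77% of all genes. Its log2 fold change of -1.05 had a limma adjusted p of 0.115, and *PUT1* (Solyc08g005540.2) passed both cut-offs at -1.21 after median-of-ratios scaling (limma adjusted p = 0.0419). *PUT1* also passed them with the dependence on gene length taken out, at -1.11 (limma adjusted p = 0.0365), and with the kind of library in the fit, at -1.05 (limma adjusted p = 0.0391). Without Torin2 replicate 1, *PUT1* was at -0.60 (limma adjusted p = 0.232). None of the neighbouring genes was called in the limma fit described above, with a pseudocount of 0.1 FPKM and no covariate.

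The cytochrome pathway, which competes with the alternative oxidases for ubiquinol, and other mitochondrial functions could be followed only through 6 genes whose descriptions stand in the study's own list of changed genes. They were chosen there in these same libraries, which fixes their direction, so that they are described and support nothing. *COX6B-1* (Solyc04g074550.4), a subunit of cytochrome c oxidase, was measured at 46.6, 70.3, 61.5 and 64.2 FPKM in Torin2 replicates 1 to 4, against 134.1, 138.1, 100.6 and 119.5 FPKM in mock replicates 1 to 4. All Torin2 libraries of *COX6B-1* were below all mock libraries, and it was called with a log2 fold change of -1.03 (limma adjusted p = 0.00473). Without Torin2 replicate 1, mock replicate 1 or mock replicate 2, its log2 fold change was -0.90, -0.98 and -0.97, short of the cut-off, as it was at -0.98 with the dependence on gene length taken out.

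*COX5B-1* (Solyc06g067940.4), another subunit of this enzyme, averaged 62.9 ± 4.93 FPKM in Torin2-treated and 121.8 ± 18.5 FPKM in mock-treated seedlings (SD, n = 4 each), with a log2 fold change of -0.94 (limma adjusted p = 0.00585). *PHB3* (Solyc11g010190.1), a prohibitin that scaffolds the inner mitochondrial membrane, had a log2 fold change of -0.98 (limma adjusted p = 0.0265). It averaged 31.4 ± 6.14 FPKM in Torin2-treated and 64.5 ± 23.8 FPKM in mock-treated seedlings. Its mock values differed by kind of library, at 80.3 and 89.4 FPKM in replicates 1 and 2 but 43.9 and 44.5 FPKM in replicates 3 and 4. The Torin2 values were 23.2, 35.6, 30.3 and 36.6 FPKM in replicates 1 to 4. Both *COX5B-1* and *PHB3* stayed just short of the fold change cut-off over the 8 libraries as deposited. *PHB3* passed both cut-offs without Torin2 replicate 2 or 4 or mock replicate 3 or 4, at -1.05 to -1.14. With 1 library left out, *COX5B-1* passed them without mock replicate 3, at -1.05. After median-of-ratios scaling both passed, *COX5B-1* at -1.10 (limma adjusted p = 0.000925) and *PHB3* at -1.14 (limma adjusted p = 0.00363).

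The other described genes were not all of the same direction. Solyc08g007805.1, described as a subunit of NADH dehydrogenase, the enzyme that feeds electrons into the ubiquinone pool, was measured at 26.3, 7.89, 15.1 and 8.45 FPKM in Torin2 replicates 1 to 4, against 4.38, 5.33, 7.85 and 6.46 FPKM in mock replicates 1 to 4. The groups of Solyc08g007805.1 were apart by a narrow margin, and it was called as higher with a log2 fold change of 1.11 (limma adjusted p = 0.0489). This call was kept in 6 of 17 alternatives and lost, among others, after median-of-ratios scaling (0.95, limma adjusted p = 0.178) and without Torin2 replicate 1 (0.76) or 3 (1.03) or mock replicate 1 (0.97), 2 (1.06) or 4 (1.15). Solyc12g008730.3, described as subunit G of the mitochondrial ATP synthase, averaged 186.5 ± 31.6 FPKM in Torin2-treated and 343.9 ± 47.8 FPKM in mock-treated seedlings (SD, n = 4 each; log2 fold change -0.89, limma adjusted p = 0.00919), and passed both cut-offs after median-of-ratios scaling, at -1.05. Solyc04g011530.3, described as a cytochrome oxidase assembly protein, averaged 12.9 ± 4.99 FPKM in Torin2-treated and 23.1 ± 3.33 FPKM in mock-treated seedlings (log2 fold change -0.93, limma adjusted p = 0.0518). It passed both cut-offs after median-of-ratios scaling, at -1.09, and without Torin2 replicate 2, at -1.11, and was at -0.61 without Torin2 replicate 1. Whether these genes changed unequally to the alternative oxidases was not tested.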

How the data were processed

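Total RNA of whole seedlings was sequenced as paired-end reads of 150 bp, which the authors aligned to SL4.0 with HISAT2. The authors deposited FPKM values, a column per library without pooling. The submitters' processing notes also name fastp, FastQC, SAMtools, HTSeq and DESeq2, and gene lengths and the annotation release are not given in the sources used here.

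FPKM values were used as deposited. Whole fragments, and with them the depth and gene lengths, were recovered for all 25571 genes with a value above 0 (within 0.001 fragments plus the rounding of the values), a step tested on simulated data. The reads carry no molecular identifiers, so that the intervals and the floor describe counting error alone.

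The test of all genes was limma (version 3.58.1, R 4.3.3), applied to log2(FPKM + 0.1) with lmFit, then eBayes with trend and no covariate. The fit was tested on simulated data. Exact permutation tests, ratios and figures used scipy 1.17.1, numpy 2.4.6, pandas 2.3.3 and matplotlib 3.10.9 under Python 3.11.15. The members and lists were chosen with earlier results of these data known. The named genes are the members, the 2 listed genes on each side of each member's identifier, the 3 genes most correlated with each member of at least 1 FPKM, and genes of respiratory lists matched by description. These lists matched no gene of the reference table, which holds no descriptions, so that only genes described in the study's own list could be named, and no list was counted. The study's fold changes and p-values were not used. Alternatives were other pseudocounts, filters and scaling, a loess correction for gene length in every library (span 0.3), the replicate number as a block, the kind of library as a covariate and each library left out.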

Additional observations from a re-analysis of the deposited data

How the results depend on the processing

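No alternative run called any of the 3 alternative oxidases by the adjusted p and the fold change cut-off. The log2 fold change of *AOX2* ran from 0.50 to 0.79 over 17 alternatives, its limma adjusted p from 0.00620 to 0.351, and its unadjusted p was under 0.05 in 11 of them. With 1 library left out it ran from 0.53 to 0.79, and with the trend with gene length removed it was 0.70 (limma adjusted p = 0.0185, a fit in which 25.7% of all genes had an adjusted p under 0.05). *AOX1b* stayed between 0.01 and 0.39. *AOX1c* changed sign to 0.025 without Torin2 replicate 3 and 0.026 without mock replicate 1, and ran from -0.23 to 0.03 with 1 library left out; with a filter at a mean of 1 FPKM it was not tested. The ratio of *AOX2* to *AOX1c* kept its direction in all 9 alternatives, with differences from 0.55 to 0.85.

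The correlation between the deviations of same-numbered libraries was -0.38, 0.38, 0.40 and -0.25 for replicates 1 to 4. It was positive where both libraries were of the same kind and negative where they were not. These values therefore cannot tell a pairing by number from the kinds of library, and the labels give no pairing. With the replicate number as a block, *AOX2* stayed at 0.66 (limma adjusted p = 0.169), *AOX1b* at 0.21 and *AOX1c* at -0.07, and 1235 genes were called as higher and 674 as lower.

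Of all genes tested, 1186 were called as higher and 671 as lower. A pseudocount of 1 FPKM gave 642 higher and 444 lower, and median-of-ratios scaling 768 higher and 1011 lower, so that the split between directions depends on the scaling. With 1 library left out, 663 to 1531 genes were called as higher, the fewest without mock replicate 4, and 490 to 793 as lower; without Torin2 replicate 4, 765 were higher. The cause of these shifts was not tested. The planned edgeR test was not run, because the deposited values are FPKM, although it could have been applied to the recovered fragments. In its place, limma-voom on recovered fragments was added after seeing the data (*AOX2* at 0.68, adjusted p = 0.152). The counts over respiratory lists were not run. *AOX1c* had the fewest fragments, 21 to 38 per library.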
